A study of Auxenochlorella pyrenoidosa with 12 samples.

Results

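Among 11520 assembled contigs of a green alga with a mean of at least 2 FPKM, 88 were higher at every dose of an oxidant than without it and about equally high at each of the doses. Contigs are transcript sequences pieced together from reads, and FPKM counts sequenced fragments relative to the length of the contig and the mapped fragments of the library. The table held 29140 contigs in all. Libraries were first put on a common scale by dividing each by its median ratio to the geometric mean of every contig, and the resulting level is called scaled FPKM here. On the log2(scaled FPKM + 1) scale, a contig was kept if the mean of each dose exceeded the control mean by at least 0.6, if the highest and lowest dose means lay less than 0.5 apart, and if its lowest exposed library lay above its highest control library. The members were thus chosen on their difference from the control, so limma's calls of that difference are given below as a description and nothing is read from them.

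The cells were Auxenochlorella pyrenoidosa, a single-celled freshwater alga also named Chlorella pyrenoidosa, with RNA taken from whole cells. Cultures without potassium peroxymonosulfate served as control, and the exposed cultures received it at 0.1 EC50 (1.70 mg/L), 0.2 EC50 (3.40 mg/L) or 0.5 EC50 (8.49 mg/L), where the EC50 is the concentration with a median effect. Each of these 4 groups had 3 libraries. The exposure lasted 12 days. The sources used here do not state on which of these days the RNA was taken, nor the strain. They also do not state whether each library had a culture of its own, so the spread behind the p-values, which is that between the libraries, may be technical.

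Potassium peroxymonosulfate is a strong oxidant used to disinfect and treat water, and it breaks down in water over time. Green algae exposed to oxidants are known to raise enzymes that remove reactive oxygen species, chaperones that refold damaged proteins and enzymes that restore glutathione, while parts of the photosynthetic machinery can fall. Which of these functions the 88 contigs belong to cannot be said here, because no source used here pairs contig identifiers with gene names or sequences. Lists of antioxidant, chaperone, photosynthesis and other genes could therefore not be counted. The contigs carry names of the Trinity assembler, in which the DN and c numbers mark a cluster of overlapping reads, g a gene within it and i an isoform of that gene. After these comes an ending of 1, 2, 3 or 4, which no source used here explains.

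The 12 libraries summed to between 503295 and 561291 FPKM, their scaling factors lay between 0.889 and 1.12, and between 14015 and 18475 contigs reached 1 FPKM. The depth in reads is unknown, since no counts were given. Values between 0.01 and 1 FPKM step in amounts set by single fragments, and in 4 libraries these steps lined up less with those of control replicate 1 than in the rest. The share of low values in the fullest step was 6.1% in control replicate 2, 4.2% in 0.1 EC50 replicate 2, 5.55% in 0.1 EC50 replicate 3 and 5.33% in 0.2 EC50 replicate 2, against 8.23% to 18.8% in the other 7 libraries. A limit of 7% on this share, with control replicate 1 as the only reference, set the 4 apart. Without these 4 libraries the same rule gave 129 contigs, of which 48 were among the 88.

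The 88 contigs rose together by a little under 1 log2 unit at each dose. From the lowest to the highest dose, the medians of their log2 differences from control were 0.80, 0.91 and 0.77, where those over all 16732 contigs tested were 0.0001, -0.03 and 0.05. Without the 4 libraries that stood apart, the members' medians were 1.05, 0.86 and 0.75, the first of which rests on 0.1 EC50 replicate 1 alone. The lowest and highest member differences were 0.60 and 1.59 at 0.1 EC50, 0.61 and 1.68 at 0.2 EC50, and 0.60 and 1.82 at 0.5 EC50. A difference of 1 log2 unit or more was reached by 19, 30 and 20 members at these doses. In a culture measured in bulk, more RNA per cell and more cells that make the RNA cannot be told apart.

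**Figure D1:**
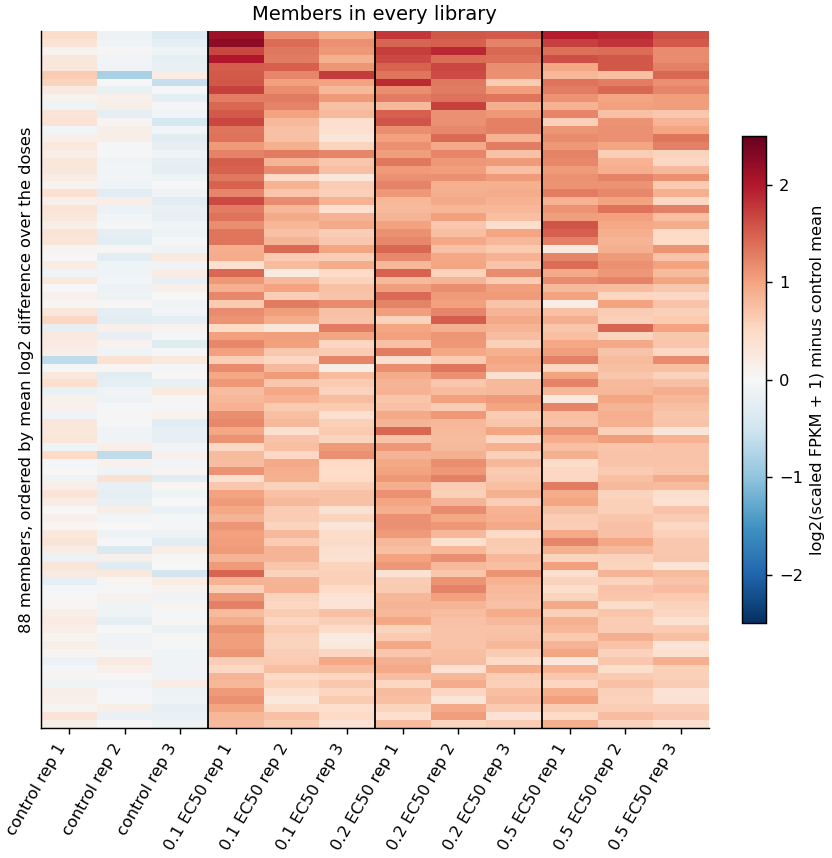
Each line is 1 of the 88 members and each column 1 of the 12 libraries, with colour giving log2(scaled FPKM + 1) minus the member's control mean, and members are ordered by their mean difference over the doses. The 9 exposed columns are red for nearly every member, the strongest column being 0.1 EC50 replicate 1, and the control columns are pale.

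Seen library by library, the middle of the members sat at a similar height in most exposed libraries. The median scaled FPKM of the members was 9.10, 8.03 and 7.59 in the controls, and 19.6, 15.0 and 13.1 at 0.1 EC50. It was 16.1, 17.0 and 16.4 at 0.2 EC50, and 16.1, 15.4 and 13.7 at 0.5 EC50. The 9 exposed libraries did not overlap with the 3 controls, and the highest and the lowest exposed medians were both found at the lowest dose. The members made up 0.204% to 0.276% of the summed FPKM in the controls, 0.344% to 0.518% at 0.1 EC50, 0.441% to 0.508% at 0.2 EC50 and 0.403% to 0.523% at 0.5 EC50.

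The rule itself keeps the dose means of a member close, so the values between doses are a description too. On scaled FPKM the highest mean was found at the middle dose for 47 members, at the lowest dose for 20 and at the highest dose for 21. The distance between a member's highest and lowest dose means had a median of 0.26 on the log2 scale, with quartiles of 0.13 and 0.37. In a limma fit over all contigs, 0 members were called at a Benjamini-Hochberg adjusted p under 0.05 between any pair of doses, where 5.71% of all contigs were called between 0.5 and 0.2 EC50, 12.3% between 0.5 and 0.1 EC50 and 0% between 0.2 and 0.1 EC50. At an unadjusted p under 0.05 limma gave 13, 4 and 2 members for these pairs, and 3986, 5055 and 1951 of the 16732 contigs tested. The limit on the dose means bears on these counts, and nothing is read from them. The median member difference was -0.10 for 0.5 minus 0.2 EC50, and it was below 0 in every alternative run. For 0.5 minus 0.1 EC50 it was -0.04, with a sign that turned with the scaling and with single libraries. It was 0.18 on FPKM as deposited, 0.17 with equal summed FPKM, 0.0076 after quantile normalization, 0.12 without 0.1 EC50 replicate 1 and 0.02 without 0.5 EC50 replicate 3, and -0.28 without the 4 libraries that stood apart. For 0.2 minus 0.1 EC50 it was 0.07, and it turned to -0.02 without 0.1 EC50 replicate 3 and to -0.23 without those 4 libraries. Without those 4, the 0.1 EC50 group held replicate 1 alone. Which dose stood highest for the median member therefore cannot be read from these data. Without 0.1 EC50 replicate 1, 5 members were called between 0.5 and 0.1 EC50 and 1 between 0.5 and 0.2 EC50. Over all contigs, 1122 and 622 were then called higher at 0.5 EC50 and 1137 and 402 lower. Without 0.5 EC50 replicate 1, 1 member was called between 0.5 and 0.1 EC50, where 770 of all contigs were called higher and 639 lower.

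The same limma fit called 64 members higher at 0.5 EC50, where 3.93% of all contigs were called higher, 82 at 0.2 EC50, where 5.6% were, and 72 at 0.1 EC50, where 4.49% were. These counts come from the contrasts that chose the members, and nothing is read from their distance to the shares of all contigs. All 3 doses called 59 of the members, 2 doses called 16, 1 dose called 9 and none called the remaining 4, although all 88 met the rule. Of the 16732 contigs tested, 174 were called higher at 3 doses, 437 at 2, 949 at 1 and 15172 at none. The counts moved with single libraries. At 0.5 EC50 the count was 27 without control replicate 2, 28 without control replicate 3, 35 without 0.5 EC50 replicate 1 and 25 without 0.5 EC50 replicate 2. Over all contigs, the 657 calls higher became 251, 282, 350 and 176 in these runs. At 0.2 EC50 the count of members was 52 and 47 without those controls and 51 without 0.2 EC50 replicate 1. Over all contigs, 937 became 594, 456 and 514. At 0.1 EC50 the count of members was 38 and 40 without those controls, 43 without 0.1 EC50 replicate 1 and 42 without 0.1 EC50 replicate 2. Over all contigs, 751 became 517, 408, 506 and 377. Without the 4 libraries that stood apart, 0.1 EC50 was left with 1 library that is assumed to vary like the others, so the calls of that fit are not counted here. At each dose they were fewer than with all 12 libraries, among the members and among all contigs.

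The largest rises belonged to 3 contigs, which are named because they had the 2 largest log2 differences at a dose among members with a mean of at least 5 scaled FPKM there. TRINITY_DN2949_c0_g1_i2_4 had the largest difference at 0.5 EC50. It was measured at 9.19, 5.80 and 4.95 scaled FPKM in the controls, at 31.5, 15.9 and 13.2 at 0.1 EC50, at 24.4, 20.8 and 20.7 at 0.2 EC50, and at 28.1, 26.3 and 21.6 at 0.5 EC50. The lowest exposed library, at 13.2, still lay above the highest control, at 9.19, and 0.1 EC50 replicate 1 stood well above its own group. Its means were 6.64 ± 2.25, 20.2 ± 9.86, 22.0 ± 2.11 and 25.3 ± 3.36 scaled FPKM from the control to the highest dose (SD, n = 3). On the log2 scale it rose by 1.41 at 0.1 EC50, 1.62 at 0.2 EC50 and 1.82 at 0.5 EC50, each with a standard error of 0.29. Its difference at 0.1 EC50 was the only one among the 3 contigs that another setting took out of limma's calls, both when only the groups compared entered the fit and without the 4 libraries that stood apart.

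TRINITY_DN14874_c0_g1_i1_4 had the largest difference at 0.1 EC50 and the second largest at 0.5 EC50. Its controls stood at 11.5, 8.42 and 7.63 scaled FPKM, its libraries at 0.1 EC50 at 46.6, 25.3 and 21.2, those at 0.2 EC50 at 26.4, 27.5 and 22.8, and those at 0.5 EC50 at 32.1, 34.4 and 28.1. The libraries at 0.1 EC50 spanned those of both other doses, none of the exposed libraries reached down to the controls, and 0.1 EC50 replicate 1 was again the highest of all. Group means were 9.19 ± 2.06 in the control and 31.1 ± 13.6, 25.6 ± 2.42 and 31.5 ± 3.20 from the lowest to the highest dose (SD, n = 3). The log2 differences were 1.59, 1.40 and 1.69 from the lowest to the highest dose, with a standard error of 0.25.

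TRINITY_DN220_c6_g1_i1_4 was a contig of low level and had the largest difference at 0.2 EC50. It was at 3.08, 2.95 and 2.56 scaled FPKM in the controls, at 11.3, 8.59 and 7.14 at 0.1 EC50, at 11.9, 13.3 and 9.39 at 0.2 EC50, and at 9.07, 9.10 and 7.76 at 0.5 EC50. No other member had as wide a gap between its controls and its exposed libraries, 1.00 on the log2 scale from 3.08 to 7.14 scaled FPKM. Its means were 2.86 ± 0.273, 9.02 ± 2.13, 11.5 ± 1.96 and 8.64 ± 0.769 (SD, n = 3), and its log2 differences 1.36, 1.68 and 1.32, with a standard error of 0.16.

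**Figure D2:**
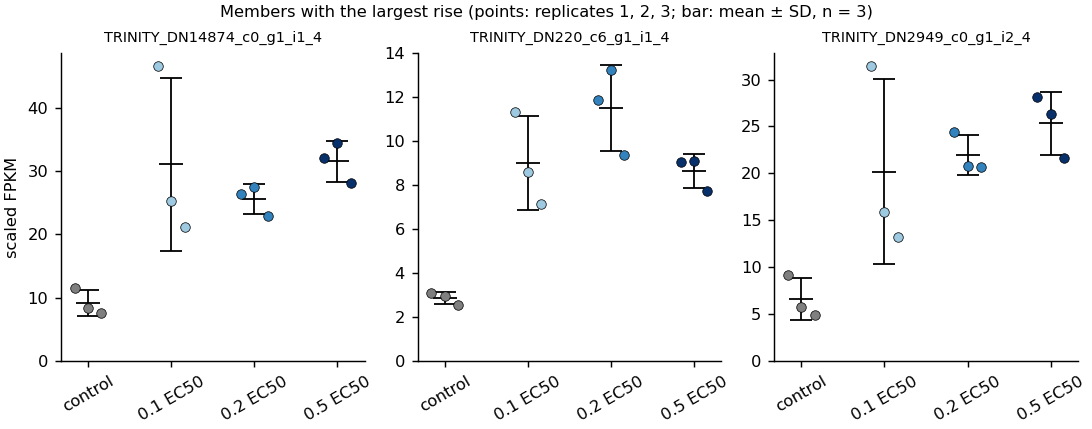
Scaled FPKM of the 3 named contigs in every library by group, each point being 1 library, with bars for mean ± SD (n = 3) and each panel on its own axis from 0. In each panel the 9 exposed points lie above the 3 control points, and 0.1 EC50 replicate 1 is the highest point for TRINITY_DN14874_c0_g1_i1_4 at 46.6 and for TRINITY_DN2949_c0_g1_i2_4 at 31.5.

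Members were found at low and at high levels. The mean control level of the members had a median of 7.98 scaled FPKM and quartiles of 4.23 and 14.0, against a median of 7.43 and quartiles of 3.66 and 17.5 for all contigs of at least 2 FPKM. The highest member stood at 82.1 scaled FPKM in the controls, far below the highest of all contigs at 43400. The mean log2 difference over the doses had a median of 0.91 for the 25 members under 5 scaled FPKM in the controls, 0.81 for the 45 members between 5 and 20, and 0.85 for the 18 members over 20. All but 3 of the members, 85 in number, exceeded 1 FPKM in all 12 libraries.

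The most abundant member was at 101, 67.7 and 77.9 scaled FPKM in the controls, at 207, 147 and 131 at 0.1 EC50, at 187, 159 and 144 at 0.2 EC50, and at 196, 146 and 114 at 0.5 EC50. Its log2 differences were 0.96, 0.99 and 0.87 from the lowest to the highest dose. Its lowest exposed library, 0.5 EC50 replicate 3, was only a little above its highest control. Its means were 82.1 ± 17.0, 162 ± 40.3, 163 ± 21.5 and 152 ± 41.6 scaled FPKM (SD, n = 3). The member in the middle of the order of levels stood at 8.13, 6.76 and 7.51 in the controls, at 18.5, 11.9 and 12.8 at 0.1 EC50, at 21.6, 16.7 and 16.7 at 0.2 EC50, and at 16.1, 11.2 and 11.1 at 0.5 EC50. Its dose means lay 0.4988 apart on the log2 scale, the widest of any member and just inside the limit of 0.5.

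At the other end, the member of the lowest level had 1.25, 1.52 and 1.19 scaled FPKM in the controls, 2.33, 2.89 and 3.01 at 0.1 EC50, 3.45, 2.03 and 3.40 at 0.2 EC50, and 3.25, 2.12 and 2.50 at 0.5 EC50. Here the lowest exposed library was at 2.03 and the highest control at 1.52. A single member was listed at 0 in any library, namely in control replicate 2, with 1.72 and 0.988 in the other controls and between 1.95 and 4.93 in the exposed libraries. A value of 0 in a table without counts can be a failed estimate.

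The limits of the rule cut through a dense field of contigs. Of the 11520 contigs, 221 had a difference of at least 0.6 at all doses, 124 of these had dose means less than 0.5 apart, and 88 of these had no overlap with the controls. The smallest member difference was 0.6003, and the nearest contig left out on the difference alone had 0.5981. Within 0.1 of that limit there were 43 members inside and 56 contigs outside. The nearest contig left out on the spread of its dose means alone had 0.532, and 28 contigs were left out on that ground. The smallest gap between the lowest exposed and the highest control value was 0.0113 inside the rule and -0.0049 outside. Another 16 contigs met every other demand with a mean under 2 FPKM, the nearest at 1.98.

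**Figure D3:**
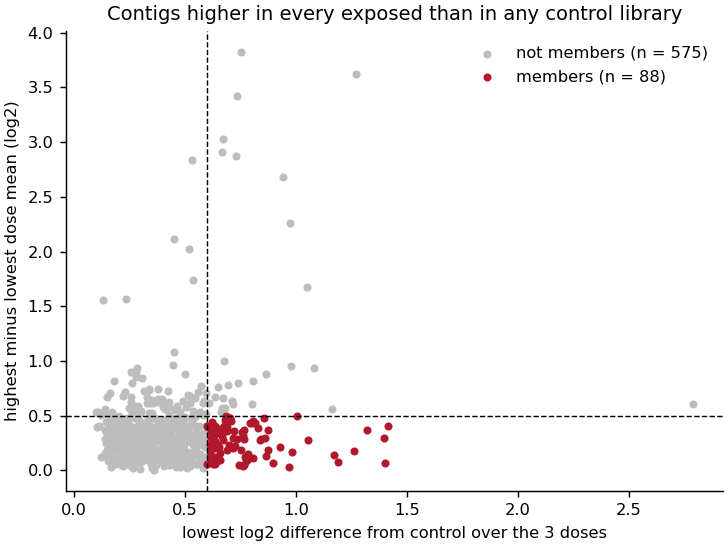
Each point is 1 of the 663 contigs whose lowest exposed value lay above the highest control value, by the lowest of its log2 differences from control over the 3 doses and by the distance between its highest and lowest dose means. Dashed lines mark the limits of 0.6 and 0.5, and the 88 members fill the lower right corner, many of them close to the limit of 0.6.

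Contigs higher in all 9 exposed than in all 3 control libraries were 663 of 11520, or 5.76%, so that the members were 88 of these 663. In this wider set most contigs rose by less than 0.6 at some dose, among them 465 that were left out on the difference alone. The gap that separated members from their controls was small for many of them, with a median of 0.27 on the log2 scale and quartiles of 0.15 and 0.36. It reached 0.5 in 10 members and stayed under 0.1 in 12.

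The members also differed between libraries of the same group. The rule bears on this measure through the group means and through the demand of no overlap, since 1 high library lifts the mean of its group. The comparisons of libraries with all contigs in this and the next 2 paragraphs are therefore a description. In 0.1 EC50 replicate 1 the median member lay 0.29 above its group mean on the log2 scale, and in 0.1 EC50 replicate 3 it lay at -0.23. In the control group the values were 0.14, -0.07 and -0.08 for replicates 1, 2 and 3, at 0.2 EC50 they were 0.06, 0.04 and -0.10, and at 0.5 EC50 they were 0.07, 0.02 and -0.09. All contigs of at least 2 FPKM had medians between -0.02 and 0.01 in these libraries. By this median deviation the libraries numbered 1 were the highest in every group and those numbered 3 the lowest, with 0.2 EC50 replicates 1 and 2 close together. By the median level of the members, 0.2 EC50 replicate 2 was the highest of its group and replicate 1 the lowest.

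Counted by member, replicate 1 lay above its group mean for 70 of the 88 in the control, 76 at 0.1 EC50, 59 at 0.2 EC50 and 55 at 0.5 EC50, where between 49.6% and 50.9% of all contigs did. Replicate 1 was above the mean in all 4 groups for 36 members, or 40.9%, against 16.4% of all contigs. The corresponding values were 6 members (6.82%) against 13.6% for replicate 2, and 1 member (1.14%) against 10.3% for replicate 3. Nothing in the labels ties libraries of the same number together.

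**Figure D4:**
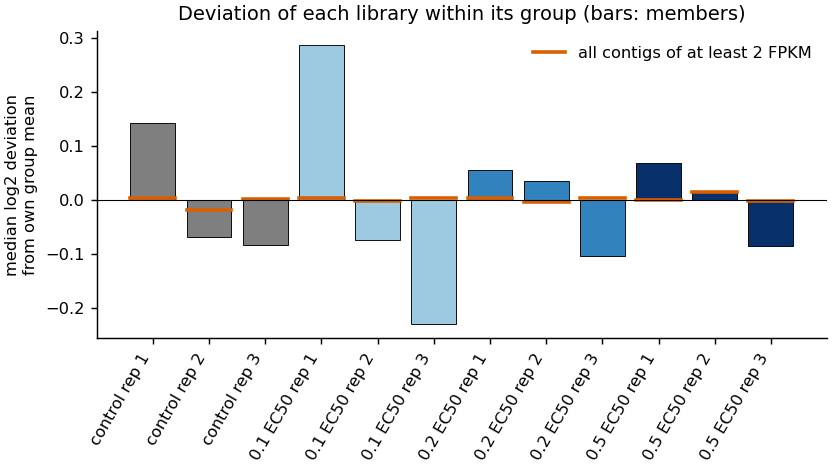
Bars give, for each of the 12 libraries, the median over the 88 members of the log2 deviation from the member's own group mean, and orange lines give the same median over all contigs of at least 2 FPKM. Bars for 0.1 EC50 replicates 1 and 3, at 0.29 and -0.23, are the longest, while the orange lines stay between -0.02 and 0.01.

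The members varied most between libraries at 0.1 EC50. The median SD of a member within the 0.1 EC50 group was 0.30 on the log2 scale, against 0.19 over all contigs of at least 2 FPKM. In the control group it was 0.19 against 0.17, and in both other groups it was 0.18 for members and for all contigs alike. The highest of all 12 values was found in 0.1 EC50 replicate 1 for 32 members, and within that group this library was the highest for 67 members, where 36.5% of all contigs had their highest value of the group there. The lowest exposed value was found in 0.1 EC50 replicate 3 for 36 members and in 0.5 EC50 replicate 3 for 19. Control replicate 1 held the highest control value for 60 members, against 34.7% of all contigs. Without 0.1 EC50 replicate 1 the rule gave 60 contigs, 58 of them members, and without control replicate 1 it gave 130, which included 81 members.

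To look at libraries that took no part in the choice, the rule was applied to 11 libraries at a time and the left-out library was then read, with the scaling factors of all 12 libraries kept. A left-out control lay below all 9 exposed libraries for 263 of the 313 contigs so chosen, or 84.0%, against 14.9% of all contigs of at least 2 FPKM read in the same way. For single controls the share was 80.0% (104 of 130) for replicate 1, 88.2% (82 of 93) for replicate 2 and 85.6% (77 of 90) for replicate 3. The choices share most of their libraries and contigs. A left-out control is read against exposed values that the rule had chosen, and a left-out exposed library against control means that it had chosen. These shares, here and in the next paragraph, are therefore a description and carry no test. Nothing is read from their distance to the shares of all contigs.

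A left-out exposed library lay at least 0.6 above the control mean for 567 of 790 contigs so chosen, or 71.8%, against 10.7% of all contigs. This share was highest for 0.2 EC50 replicate 1, with 79 of 86 contigs (91.9%), and lowest for 0.1 EC50 replicate 3, with 46 of 107 (43.0%). It was 88.3% and 68.8% for 0.1 EC50 replicates 1 and 2, and 87.5% and 81.5% for 0.2 EC50 replicates 2 and 3. At the highest dose it was 62.9%, 75.3% and 59.3% for replicates 1, 2 and 3. Between 87.6% and 100% of the chosen contigs lay above the highest control in the left-out exposed library, where 31.4% to 35.1% of all contigs did.

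**Figure D5:**
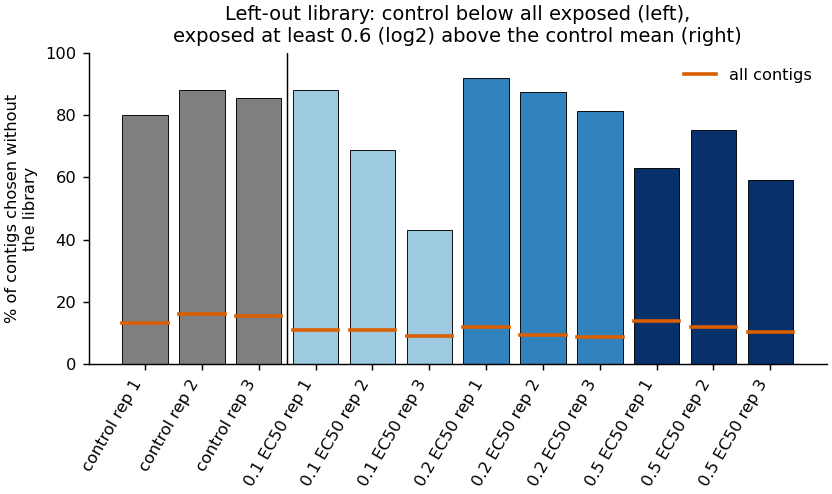
Bars give, for each library left out of the choice, the percent of contigs chosen from the other 11 libraries that lay below all exposed libraries (3 controls, left) or at least 0.6 above the control mean on the log2 scale (9 exposed libraries, right), and orange lines the percent of all contigs. Every bar is above its line, from 43.0% for 0.1 EC50 replicate 3 to 91.9% for 0.2 EC50 replicate 1.

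Names were a property that the rule did not use, though the differences it did use varied with the ending over all contigs. Of the members, 42 (47.7%) had a name ending in 4, where 32.1% of all contigs of at least 2 FPKM did, and 9 (10.2%) had a name ending in 3, where 26.3% did. Names ending in 1 and 2 were carried by 17 (19.3%) and 20 members (22.7%), against 23.6% and 18.1%. The shares among the 663 contigs without overlap were 21.3%, 20.5%, 12.4% and 45.9% for the endings 1 to 4. Over all contigs of at least 2 FPKM, the median log2 differences for these endings were 0.007, 0.081, -0.066 and 0.046 at 0.1 EC50. They were -0.06, 0.032, -0.127 and 0.059 at 0.2 EC50, and 0.027, -0.014, 0.01 and 0.06 at 0.5 EC50.

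The other contigs of a member's Trinity gene could not be examined under its own ending, since each such name occurs once in the table and left 0 other contigs. With the ending ignored, 60 other contigs shared a Trinity gene name with a member and 45 of them were tested. Limma called 2, 0 and 4 of these higher at 0.5, 0.2 and 0.1 EC50, and 1 lower at each dose. Of all contigs, 3.93%, 5.6% and 4.49% were called higher and 3.93%, 5.54% and 5.62% lower. The median log2 differences of the 45 contigs were 0.02, 0.00 and 0.11. Whether equal gene names under different endings mean the same gene is not given.

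Contigs with the DN number and the ending of a member, whatever their c number, were then taken as relatives by name. This definition was added after seeing that the first had no contigs. There were 76 contigs with the DN number and the ending of a member, 67 of which were tested, and no pair of members shared both. Their median log2 differences were 0.16, 0.14 and 0.10 from the lowest to the highest dose. Limma called 7 of these 67 higher at 0.1 EC50, 9 at 0.2 EC50 and 2 at 0.5 EC50, and 2 lower at each dose. At these doses 4.49%, 5.6% and 3.93% of all contigs were called higher and 5.62%, 5.54% and 3.93% lower. Most relatives thus passed the test in neither direction. The counts higher ranged from 3 to 7, 7 to 10 and 0 to 7 without 1 library at a time, with 0 at 0.5 EC50 without control replicate 3, 0.5 EC50 replicate 1 or 0.5 EC50 replicate 2, 1 without control replicate 1 or 2 or 0.5 EC50 replicate 3, and 3, 5, 7 and 3 without 0.1 EC50 replicate 2, 0.1 EC50 replicate 3, 0.1 EC50 replicate 1 and 0.2 EC50 replicate 2. At 0.1 EC50 it was 3 without 0.1 EC50 replicate 1, and 4 without control replicate 3 or 0.1 EC50 replicate 2. The c number was shared as well by 17 of the relatives, 14 of which were tested. In the main fit limma called 2, 1 and 0 of these 14 higher at 0.1, 0.2 and 0.5 EC50, and 1, 1 and 2 lower.

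Of the relatives by DN number and ending, the contigs called at 0.5 EC50 are named. TRINITY_DN220_c5_g1_i2_4, of the same DN number as the named member TRINITY_DN220_c6_g1_i1_4, was at 8.64, 10.3 and 9.76 scaled FPKM in the controls, at 18.1, 14.6 and 14.4 at 0.1 EC50, at 19.3, 18.4 and 18.3 at 0.2 EC50, and at 16.3, 13.6 and 13.6 at 0.5 EC50. All of its exposed libraries lay above its controls, and it missed the rule only by its difference at the highest dose. It rose by 0.66, 0.90 and 0.55 on the log2 scale from the lowest to the highest dose, with a standard error of 0.11 and limma adjusted p of 0.00544, 0.00103 and 0.018. TRINITY_DN7386_c2_g1_i1_4 rose by 0.80, 0.91 and 0.52, with adjusted p of 0.00237, 0.00103 and 0.0239, and its means were 4.10 ± 0.640 in the control and 7.81 ± 0.242, 8.56 ± 0.771 and 6.28 ± 0.541 at the doses (SD, n = 3). Both differences at 0.5 EC50 missed the threshold without some libraries, for the first contig without control replicate 1 or 3 or 0.5 EC50 replicate 1 or 2, and for the second without control replicate 2 or 3 or any library of 0.5 EC50. Without the 4 libraries that stood apart, the adjusted p at 0.5 EC50 were 0.053 and 0.149.

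A relative of the second most abundant member moved the other way. That member, singled out after its values were seen, was at 95.2, 72.3 and 73.0 scaled FPKM in the controls, at 164, 139 and 109 at 0.1 EC50, at 167, 143 and 112 at 0.2 EC50, and at 155, 133 and 122 at 0.5 EC50. TRINITY_DN8125_c1_g4_i1_1, which shares the DN and c numbers and the ending of that member, was at 5.02, 5.51 and 6.21 in the controls. It was at 0, 0.107 and 0.135 at 0.1 EC50, at 0.446, 0.829 and 0.513 at 0.2 EC50, and at 0.233, 0.437 and 1.24 at 0.5 EC50. All 9 exposed libraries of this contig were below the lowest control, with 0.1 EC50 the lowest group and 0.1 EC50 replicate 1 listed at 0. On the log2 scale it fell by 2.60 at 0.1 EC50, 2.05 at 0.2 EC50 and 2.05 at 0.5 EC50, with a standard error of 0.24 and limma adjusted p of 0.00026, 0.000667 and 0.00117, and it stayed past the threshold at all doses under every alternative in which it was tested. How the estimator shared reads between contigs of the same cluster is not given.

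TRINITY_DN1905_c1_g4_i1_1, of the same DN number as another member, was called lower at the highest dose and in neither direction at the other doses. Its control mean was 14.0 ± 1.42 scaled FPKM, and its means from the lowest to the highest dose were 15.4 ± 1.72, 15.5 ± 1.02 and 10.2 ± 0.685 (SD, n = 3). It fell by 0.42 on the log2 scale at 0.5 EC50, with a limma adjusted p of 0.0422, and had differences of 0.13 and 0.14 at 0.1 and 0.2 EC50, with adjusted p of 0.53 and 0.489. Among the fits without 1 library, the call at 0.5 EC50 held without 0.1 EC50 replicate 1, 0.1 EC50 replicate 3 or 0.2 EC50 replicate 2 and was lost in the other 9. It was also lost on FPKM as deposited (adjusted p 0.104) and without the 4 libraries that stood apart (0.118).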

How the data were processed

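The authors deposited 1 table of FPKM values for 12 libraries, the unit being known from the table's name. Libraries were made with Illumina TruSeq RNA per the labels' protocols. The sources used here name no assembler version, aligner, abundance estimator or filter. All columns were matched to samples by title, leaving 0 unused.

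Members and lists were chosen with earlier results of these data known. Scaling factors came from 10067 contigs averaging 2 FPKM or more and above 1 FPKM in all libraries. Taking them from all 10427 contigs above 1 FPKM gave 85 members, all among the 88. Contigs averaging 1 FPKM or more, 16732 in all, entered limma 3.58.1 (R 4.3.3) as log2(scaled FPKM + 1), with a prior variance that follows the level. On this scale the changes of low contigs come out too small. A single fit held the 4 groups and left 8 residual degrees of freedom, and contigs were called at a two-sided Benjamini-Hochberg adjusted p under 0.05 over all contigs tested. The procedure was tested on simulated data.

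Identifiers are printed for the 2 members with the largest difference at each dose among those with at least 5 scaled FPKM there, and, of their relatives, for the 2 largest rises and the 2 largest falls called at 0.5 EC50. Alternatives were 3 other scalings, a pseudocount of 0.1, other filters and limits, no prior trend, a replicate block, fits of only the groups compared and fits without each library in turn. After seeing the data, 3 more were tried: a fit without the 4 libraries with other steps, other contigs behind the factors, and relatives by DN number. Python 3.11.15 with matplotlib 3.10.9 drew the figures.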

Additional observations from a re-analysis of the deposited data

How the results depend on the processing

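No difference of a named contig from control changed direction under the alternatives run, while the members' median differences of the higher doses from 0.1 EC50 changed sign, as given above. The rule gave 55 contigs with dose means at most 0.3 apart, 9 with a difference of at least 1, and 60 to 130 without 1 library at a time. It gave 80 contigs on FPKM as deposited, 65 with equal summed FPKM and 87 after quantile normalization, of which 55, 51 and 72 were members. Those first 2 scalings moved the median of all contigs at 0.5 EC50 from 0.05 to 0.16 and 0.13 on the log2 scale. Without 1 library, limma called 25 to 71 members at 0.5 EC50, 47 to 82 at 0.2 EC50 and 38 to 70 at 0.1 EC50, and without the 4 libraries with other steps it called 27, 29 and 19. At 0.1 EC50 it called 41 members with equal summed FPKM and 28 with only the 2 groups compared, where 358 and 369 of all contigs were called higher. Between 0.5 and 0.1 EC50 the calls of members were 3 on FPKM as deposited, 1 with equal summed FPKM, 1 with only these groups, and 0 to 5 without 1 library. Over all contigs, the first 3 of these settings called 2808, 2140 and 935 higher at 0.5 EC50 and 411, 404 and 616 lower. Without 1 library, the calls of members were 0 to 1 between 0.5 and 0.2 EC50 and 0 to 0 between 0.2 and 0.1 EC50. Other contigs of a member's Trinity gene with the ending ignored gave 2 calls at 0.5 EC50 and 4 at 0.1 EC50. With a minimum mean of 5 FPKM, the left-out control lay below all exposed libraries for 230 of the 255 contigs so chosen, or 90.2%. Of all contigs with that minimum, 14.7% to 18.7% did, by the control left out. The cause of these shifts was not tested. Nothing in the labels pairs libraries by replicate number, and the values do not settle whether the numbers pair them. Same-number deviations correlated over 0.1 in 8 of 18 pairs, a larger share than among pairs of different numbers. The same-number correlations ranged from -0.24 to 0.29, and those of different numbers from -0.442 to 0.466. Of the 12 libraries, 8 were closest to one of their own number. With the replicate block limma called 76, 83 and 80 members at 0.5, 0.2 and 0.1 EC50, and 3 between 0.5 and 0.2 EC50. Over all contigs it called 992, 1186 and 1024 higher than control at these doses, against 657, 937 and 751 without the block. Between 0.5 and 0.2 EC50 the fit with the block called 828 of all contigs higher at 0.5 EC50 and 581 lower. The left-out shares were recomputed only with the deposited scale, the other pseudocount and the minimum of 5 FPKM. Depth in reads is unknown, so the precision of low levels cannot be given, and 3 libraries per group limit the rest.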
